A study of Mus musculus with 8 samples.

Results

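Neurexins, neuroligins and cerebellins are synaptic adhesion proteins, and 7 of their genes were followed in the cortexes of mice on a normal or a high fat diet: Nrxn2, Nrxn3, Nlgn1, Nlgn2, Nlgn3, Cbln2 and Cbln4. They were found by gene name, as the entries with these names among the 13996 genes of the FPKM values, and the choice of names was made with earlier results of these data known. FPKM counts sequenced fragments per kilobase of transcript, scaled to the mapped reads. It is compared here between genes and between mice, although its sum over all genes differs from mouse to mouse. All 7 genes were among the 13982 that passed a filter on low values, a mean FPKM of 1 or more without a 0 in any mouse. Nlgn2, Nrxn2 and Nrxn3 rose on the high fat diet, by 1.55, 1.29 and 1.22 times, and Nlgn1, Nlgn3, Cbln2 and Cbln4 did not pass the test.

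Both groups were male C57BL/6 mice that arrived when 8 weeks old and were killed at 16 weeks. In between, the 4 normal diet mice ate conventional chow for 8 weeks and the 4 mice of the high fat diet (HFD) ate chow of which 60% of the weight was fat. The mice on the fatty chow are described by the study as heavier and less tolerant of glucose, but no weight or glucose value of a single mouse was used here. Each mouse gave 1 stranded, rRNA-depleted total RNA library of the brain cortex, so n counts mice. A level in bulk tissue cannot tell fewer cells of a type from less RNA per cell.

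Neurexins sit in the presynaptic membrane and reach across the synaptic cleft to postsynaptic partners, of which the neuroligins are the best known. The neuroligin proteins divide the synapses among themselves: Nlgn1 is found mainly at excitatory synapses, Nlgn2 at inhibitory ones, and Nlgn3 at both. Cerebellins are secreted proteins that bridge neurexins to delta-type glutamate receptors, and Cbln4 also binds Dcc and Neo1. Each neurexin gene gives a long alpha form and a short beta form and many splice variants, which an FPKM per gene adds together.

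The cortex label was checked against marker genes. All 8 cortical excitatory neuron markers were present in every mouse, with a summed FPKM of 274.5 to 421.1 on the normal diet and 468.5 to 555.0 on the high fat diet, and 7 of the 8 rose. Markers of regions next to the cortex were present as well, more so in normal mice. The 7 striatal markers summed to 163.6 to 301.2 in normal mice and 65.8 to 76.0 in HFD mice, and all 7 fell. The 4 cerebellar markers in the FPKM values summed to 4.1, 98.1, 138.5 and 28.7 in normal mice 1 to 4 and to between 0.7 and 1.3 on the high fat diet, where Gabra6, a defining receptor subunit of cerebellar granule cells, was listed at 0 in a mouse. The 7 thalamic markers summed to 40.6, 98.7, 82.7 and 27.9 in the normal mice and to between 24.7 and 28.2 in the others. By cerebellar and thalamic markers, normal mice 2 and 3 therefore had the highest sums of all libraries. Several results are given with and without them, a choice made after the data were seen. By striatal markers all 4 normal mice lay above the HFD mice, with normal mouse 1 highest at 301.2. Cerebellar sums of normal mice 1 and 4, at 4.1 and 28.7, were also above those of all HFD mice. Leaving out mice 2 and 3 therefore does not remove the striatal difference, nor all of the cerebellar one. No fit used a striatal covariate. The part of these regions in the diet differences was not tested.

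The 7 genes lie on 7 chromosomes of GRCm38 and differ widely in size. In GENCODE M21, Nrxn3 (ENSMUSG00000066392.11) spans 1612.1 kb of chromosome 12, from 88722876 to 90334935 on the plus strand, and Nrxn2 (ENSMUSG00000033768.16) spans 125.4 kb of chromosome 19, from 6418731 to 6544169 on the plus strand. Nlgn1 (ENSMUSG00000063887.13) covers 906.2 kb of chromosome 3, from 25426215 to 26332460 on the minus strand. Nlgn2 (ENSMUSG00000051790.15) covers only 14.7 kb of chromosome 11, from 69823122 to 69837784 on the minus strand, and Nlgn3 (ENSMUSG00000031302.16) covers 26.8 kb of chromosome X, from 101299168 to 101325963 on the plus strand. Cbln4 (ENSMUSG00000067578.3) takes 7.2 kb of chromosome 2, from 172036233 to 172043466 on the minus strand, and Cbln2 (ENSMUSG00000024647.14) is a gene of the same span. Of the exonic bases of Nlgn3, 41.24% are shared on the same strand with a transcript annotated as Gm21986, so its reads may have been split and its value is uncertain. That transcript was low, at 2.2 to 3.5 FPKM in normal mice and 2.4 to 4.0 in HFD mice. Nlgn1 shares 9.16% of its exonic bases with an antisense gene, A830092H15Rik, at 2.3 to 4.0 FPKM over all mice, and the sources used here do not say whether the counting used the strand.

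Start-site sequences are shown for Nlgn2 and Nrxn3, which rose, and for Nlgn1, a neuroligin that did not pass the test, because members that move together invite a look at their promoters. RefSeq promoter entries on GRCm38.p6, each of 250 bases before and 50 bases after a start, were matched by symbol for 4 of the 7 genes. The 7 entries belong to Nlgn2, Nlgn1, Nrxn3 and Cbln4. Capitals mark GGGCGG or its reverse complement, and the other letters are in lower case. The Nlgn2 entry is chr11:69837735-69838034 on the minus strand, the Nrxn3 entries shown are chr12:88953140-88953439 and chr12:89812233-89812532 on the plus strand, and the Nlgn1 entry shown is chr3:26331860-26332159 on the minus strand. Left out to save room were 1 more entry of Nrxn3, 1 more of Nlgn1 and that of Cbln4.
Nlgn2: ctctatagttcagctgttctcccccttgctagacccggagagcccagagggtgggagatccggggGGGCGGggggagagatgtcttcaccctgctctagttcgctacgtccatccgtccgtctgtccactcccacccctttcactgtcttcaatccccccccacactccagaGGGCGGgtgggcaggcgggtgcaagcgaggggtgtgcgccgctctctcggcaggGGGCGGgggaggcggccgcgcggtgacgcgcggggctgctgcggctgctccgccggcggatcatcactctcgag
Nrxn3, upstream entry: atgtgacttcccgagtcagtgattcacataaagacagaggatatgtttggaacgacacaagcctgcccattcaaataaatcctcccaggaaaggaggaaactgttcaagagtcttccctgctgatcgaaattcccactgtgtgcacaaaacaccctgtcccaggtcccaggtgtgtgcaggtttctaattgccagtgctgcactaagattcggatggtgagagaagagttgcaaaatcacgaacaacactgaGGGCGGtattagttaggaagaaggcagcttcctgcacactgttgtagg
Nrxn3, downstream entry: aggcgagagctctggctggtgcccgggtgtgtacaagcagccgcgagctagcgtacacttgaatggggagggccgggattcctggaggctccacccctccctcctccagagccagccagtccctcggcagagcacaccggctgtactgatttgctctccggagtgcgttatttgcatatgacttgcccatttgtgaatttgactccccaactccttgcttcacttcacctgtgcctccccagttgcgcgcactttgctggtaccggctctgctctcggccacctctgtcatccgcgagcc
Nlgn1: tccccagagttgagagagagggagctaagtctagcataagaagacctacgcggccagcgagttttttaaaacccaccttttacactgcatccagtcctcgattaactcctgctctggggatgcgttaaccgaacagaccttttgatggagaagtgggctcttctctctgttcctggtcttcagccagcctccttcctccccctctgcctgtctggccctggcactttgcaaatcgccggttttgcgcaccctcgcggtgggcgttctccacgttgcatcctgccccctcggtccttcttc

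Among the 7 entries, that of Nlgn2 had the most GGGCGG, the most CpG and the most G and C. It held 3 copies of GGGCGG, the core of a GC box, on either strand, 26 CpG dinucleotides and 68.7% G and C. Of the 2 Nrxn3 entries shown, the upstream one held 1 copy, 6 CpG dinucleotides and 47.7% G and C, and the downstream one held 0 copies, 16 CpG dinucleotides and 60.7%. The Nlgn1 entry shown held 0 copies, 14 CpG dinucleotides and 55.7%. The entries not shown held 0 copies, 2 CpG dinucleotides and 47.3% for Nrxn3 (chr12:88794254-88794553) and 0 copies, 6 CpG dinucleotides and 44.7% for Nlgn1 (chr3:26153937-26154236). Cbln4 held 2 overlapping copies and 15 CpG dinucleotides. Over all 32851 mouse promoter entries, 35.7% held GGGCGG on either strand, the median G and C content was 52.7% and the median number of CpG dinucleotides was 7. The letters TGACGTCA, found in 1.8% of promoters, and TATAAA, found in 13.6%, both searched on either strand, were absent from all 7 entries. A match is only a description of the letters in this window.

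Across all genes the diets differed widely, which sets the scale for the members. An adjusted p below 0.05 from limma, a linear model on log2(FPKM + 0.1) that shares its estimate of the spread over genes, was found for 33.1% of the 13982 genes, with 17.7% higher and 15.3% lower on the high fat diet. Of the 7 members, 3 passed and all 3 were higher, and 7 genes are too few to read a difference from that background. A change over 1.5 times with that threshold was found for 1 member, Nlgn2, against 7.13% of all genes in either direction and 4.23% in the higher direction. All 4 high fat diet values lay above all 4 normal values for 3 members, against 17.2% of all genes. The log2 fold change was above 0 for 6 members and below 0 for 1, with a median of 0.29 for the members and 0.00311 for all genes tested. Fold changes are on the log2(FPKM + 0.1) scale, which slightly understates the change of a low gene such as Cbln4.

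**Figure D1:**
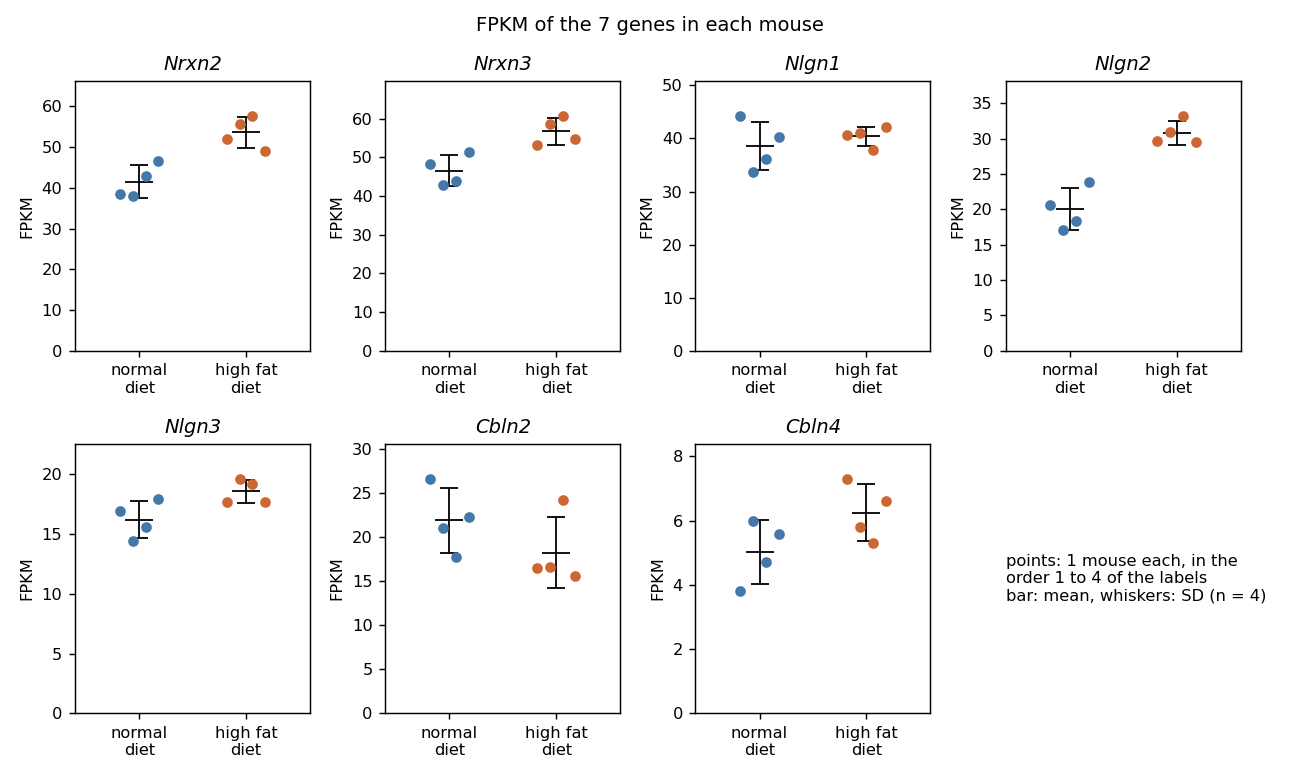
FPKM of each of the 7 genes (vertical axes, from 0) in the 4 normal diet mice and the 4 HFD mice, 1 point per mouse with the mean (bar) and SD (whiskers, n = 4). For Nrxn2, Nrxn3 and Nlgn2 every high fat diet point lies above every normal point, while the points of Nlgn1, Nlgn3, Cbln2 and Cbln4 overlap.

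The plot of FPKM by mouse shows the presynaptic side first. Nrxn2, a presynaptic neurexin, was at 38.6, 38.1, 42.8 and 46.7 FPKM in normal mice 1 to 4 and at 52.0, 55.8, 57.6 and 49.1 in HFD mice 1 to 4. The lowest high fat diet mouse lay only just above the highest normal mouse, normal mouse 4. The means were 41.6 ± 4.03 and 53.6 ± 3.81 (SD, n = 4), a log2 fold change of 0.37 (standard error, SE, of 0.08, 95% confidence interval 0.20 to 0.54, limma adjusted p = 0.00637). Nrxn3, the neurexin with the longest gene, was at 48.3, 42.8, 43.8 and 51.4 FPKM in normal mice and at 53.1, 58.5, 60.6 and 54.6 in HFD mice. Its values did not overlap either, and normal mouse 4 was again the closest to the other diet. The means were 46.6 ± 4.01 and 56.7 ± 3.46 (SD, n = 4), a log2 fold change of 0.29 (SE 0.07, 95% confidence interval 0.13 to 0.44, limma adjusted p = 0.0124). Both neurexins passed with each mouse left out in turn, with log2 fold changes of 0.33 to 0.43 for Nrxn2 and 0.25 to 0.33 for Nrxn3.

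The proportion of the neurexins to each other was similar in both diets. The FPKM of Nrxn2 divided by that of Nrxn3 was 0.799 to 0.977 in normal mice and 0.899 to 0.979 in HFD mice, and these ranges overlap. Their summed FPKM was 80.9 to 98.1 in normal mice and 104.0 to 118.0 on the high fat diet. The call of Nrxn3 was lost without normal mice 2 and 3, the mice with high thalamic and cerebellar markers. Without both, its log2 fold change was 0.18 (SE 0.06, limma adjusted p = 0.0825), while that of Nrxn2 was 0.33 (SE 0.09, limma adjusted p = 0.0378).

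Among the postsynaptic neuroligins, Nlgn2 moved most. Nlgn2, the neuroligin of inhibitory synapses, was at 20.6, 17.1, 18.4 and 23.9 FPKM in normal mice and at 29.7, 31.0, 33.2 and 29.5 in HFD mice. The diets were separated by a clear gap, and the HFD mice resembled each other more than the normal mice did. The means were 20.0 ± 2.97 and 30.9 ± 1.70 (SD, n = 4), a log2 fold change of 0.63 (SE 0.10, 95% confidence interval 0.42 to 0.85, limma adjusted p = 0.00178). This difference stood at percentile 96.1 of all genes tested. With each mouse left out it ran from 0.56 to 0.72 and always passed, but without normal mouse 2, at 0.56, it no longer exceeded 1.5 times. Without normal mice 2 and 3 it was 0.47 (SE 0.08, limma adjusted p = 0.0077).

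The other neuroligins did not pass. Nlgn1, the neuroligin of excitatory synapses, was at 44.2, 33.7, 36.2 and 40.2 FPKM in normal mice and at 40.6, 41.0, 37.8 and 42.1 in HFD mice. The highest value of all belonged to normal mouse 1, so the high fat diet values lay inside the range of the normal ones. The log2 fold change was 0.07 (95% confidence interval -0.11 to 0.25, limma adjusted p = 0.514), and it was -0.06 without normal mice 2 and 3. Nlgn3, found at both kinds of synapse, was at 16.9, 14.4, 15.6 and 17.9 FPKM in normal mice and at 17.7, 19.6, 19.2 and 17.7 in HFD mice. Here 2 of the 4 high fat diet values exceeded every normal one, and normal mouse 4 lay among the high fat diet values. The log2 fold change was 0.20 (95% confidence interval 0.03 to 0.36, limma adjusted p = 0.0624), and among the fits that left out 1 mouse it passed only without normal mouse 4, at 0.25 (limma adjusted p = 0.0266). Without normal mice 2 and 3 it was 0.09 (limma adjusted p = 0.351).

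The neuroligins also differed in their proportion to each other. The 3 genes together summed to 81.7, 65.2, 70.2 and 82.0 FPKM in normal mice and to 88.0, 91.6, 90.2 and 89.3 in HFD mice. Of that sum Nlgn2 made up 26.7% ± 1.68 in normal mice and 34.3% ± 1.68 in HFD mice (SD, n = 4), and its shares of 25.2% to 29.1% and 33.0% to 36.8% did not overlap. The share of Nlgn1 was 49.0% to 54.1% in normal mice and 41.9% to 47.1% in the others, again without overlap. Nlgn3 held 20.7% to 22.2% and 19.8% to 21.4%, which overlap. Measured against Nlgn1, Nlgn2 stood at 0.466 to 0.595 times its FPKM in normal mice and at 0.701 to 0.878 times on the high fat diet. Within the normal diet the ratio was 0.507 and 0.508 in mice 2 and 3 and 0.466 and 0.595 in mice 1 and 4. Mice 2 and 3, with the highest cerebellar and thalamic sums, lay between mice 1 and 4 in this ratio. Striatal marker sums of normal mice 1 to 4 were 301.2, 240.1, 219.9 and 163.6, the reverse of the order of the ratio. In HFD mice 1 to 4 these sums were 65.8, 69.2, 76.0 and 68.2, beside ratios of 0.732, 0.756, 0.878 and 0.701. A link of the ratio to striatal, cerebellar or thalamic tissue was not tested. The neuroligin shares and ratios come from the same values as the fold changes and are a description without a test.

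**Figure D2:**
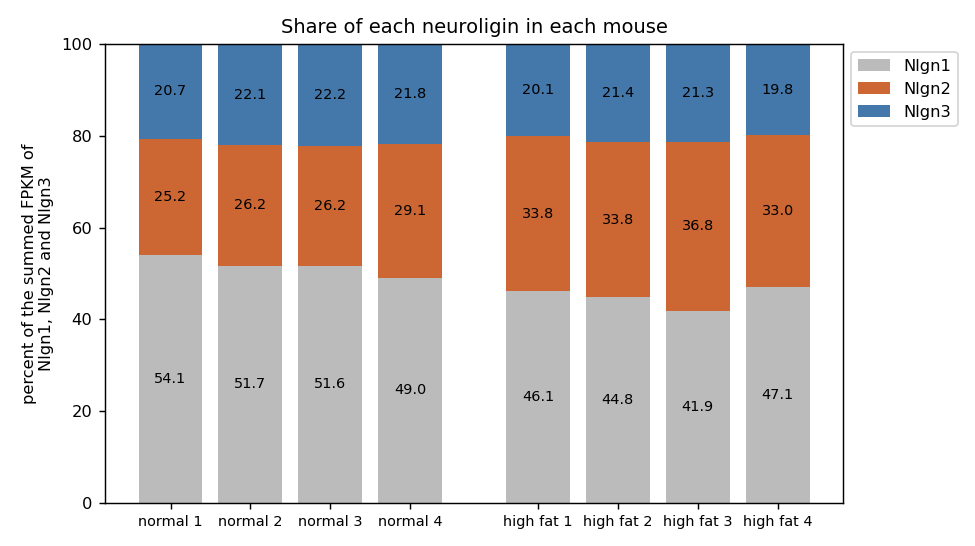
Share of Nlgn1, Nlgn2 and Nlgn3 in their summed FPKM (vertical axis, percent), with 1 bar per mouse, 4 normal and 4 high fat. Nlgn2 holds 25.2% to 29.1% of the sum in normal mice and 33.0% to 36.8% in HFD mice, and the share of Nlgn1 is smaller in each of the latter.

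As the bars of neuroligin shares show, the larger part of Nlgn2 on the high fat diet faced a smaller part of Nlgn1, whose own FPKM did not pass the test, and Nlgn3 kept nearly the same part in both diets.

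The cerebellins were the most variable members and neither passed. Cbln2, a secreted ligand of neurexins, was at 26.6, 21.0, 17.7 and 22.3 FPKM in normal mice and at 16.5, 16.6, 24.2 and 15.6 in HFD mice. In 3 HFD mice it lay below every normal mouse, and in HFD mouse 3 it lay above all normal mice but mouse 1. The log2 fold change was -0.27 (SE 0.15, 95% confidence interval -0.62 to 0.07, limma adjusted p = 0.199), and without HFD mouse 3 it was -0.42 (limma adjusted p = 0.0336). Cbln4, which also binds Dcc and Neo1, was at 3.8, 6.0, 4.7 and 5.6 FPKM in normal mice and at 7.3, 5.8, 5.3 and 6.6 in the others. The 2 highest values were on the high fat diet, and the remaining ones overlapped with the normal mice. Its log2 fold change was 0.32 (SE 0.15, 95% confidence interval -0.01 to 0.65, limma adjusted p = 0.126), with no fit under the threshold when each mouse was left out. The mouse with the most Cbln2 within a diet, normal mouse 1 or HFD mouse 3, was in each diet the mouse with the least Cbln4. Cbln1, the cerebellin of the cerebellum and no member here, was at 5.0, 48.4, 73.8 and 17.6 FPKM in the normal mice and 5.8 to 9.7 in the others, and so was highest in the mice with the most cerebellar markers. In those mice, normal mice 2 and 3, Cbln2 was below normal mice 1 and 4, and Cbln4 held the highest value of its diet in mouse 2 and the next to lowest in mouse 3.

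By level the members kept nearly the same order in both diets. Over the 8 mice the mean FPKM was 51.6 for Nrxn3, 47.6 for Nrxn2, 39.5 for Nlgn1, 25.4 for Nlgn2, 20.1 for Cbln2, 17.4 for Nlgn3 and 5.64 for Cbln4. By FPKM, Nrxn2 and Nrxn3 stood at percentiles 88.8 and 89.8 of all genes and Cbln4 at percentile 34.2. Nrxn3 and Nrxn2 overlapped in FPKM within each diet, as did Cbln2 with Nlgn3, and Nlgn1 overlapped with Nrxn2 in normal mice only. Nlgn2 overlapped with Cbln2 in normal mice but lay above it in all HFD mice. Cbln4 was below every other member in every mouse. The spread within a diet, as SD over mean, was 8.61% to 14.9% for the neurexins and neuroligins in normal mice and 4.53% to 7.11% on the high fat diet, against medians over all genes of 8.45% and 7.08%. For Cbln2 it was 16.8% and 22.0%, and for Cbln4 19.5% and 14.1%. Within the normal diet, mouse 2 had the lowest and mouse 4 the highest FPKM of Nrxn2, Nrxn3, Nlgn2 and Nlgn3.

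The genes that act with these proteins were read as 6 lists of 41 genes, of which 39 were found and tested. In all, 10 of the 39 rose and 4 fell, against 17.7% and 15.3% of all genes, and 25 did not pass. Their median log2 fold change was 0.10. Among 14 other extracellular ligands of neurexins, 4 rose and none fell. Nxph3, a neurexophilin that binds alpha-neurexins, was at 11.8 to 14.6 FPKM in normal mice and 18.4 to 26.7 on the high fat diet, a log2 fold change of 0.72 (SE 0.12, limma adjusted p = 0.00255) that made it the only partner gene past 1.5 times. Igsf21, a ligand at inhibitory synapses, rose from 26.6 ± 0.854 to 33.0 ± 1.38 (log2 fold change 0.31, limma adjusted p = 0.00174). C1ql3, a secreted relative of the cerebellins, rose by 0.31 (limma adjusted p = 0.0404), and its highest normal and lowest high fat diet values were both 35.0. The remaining riser, Lrrtm3, lies outside the rule for named genes and was named after its values were seen.

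Among cerebellin receptors other than neurexins, Grid1, a delta-type glutamate receptor, rose from 12.9 ± 1.49 to 16.5 ± 0.978 FPKM (log2 fold change 0.36, limma adjusted p = 0.0107), and Dcc and Neo1 did not pass. Of 3 membrane partners of neuroligins, Mdga2, which blocks the binding of neurexins to neuroligins, rose by 0.23 on the log2 scale (limma adjusted p = 0.0367). Of 7 postsynaptic scaffolds 1 rose and 1 fell. Magi2, a scaffold that binds neuroligins, rose by 0.34 (limma adjusted p = 0.0177). Gphn, the gephyrin scaffold of inhibitory synapses to which Nlgn2 binds, was at 27.7 to 31.7 FPKM in normal mice and 25.7 to 27.2 on the high fat diet, a log2 fold change of -0.19 (SE 0.05, limma adjusted p = 0.0231). Nlgn2 was therefore higher and Gphn lower in the HFD mice than in the normal mice. The call of Gphn was marginal, with a limma adjusted p of 0.0527 with a replicate block and 0.0648 without normal mouse 2. C1ql3 and Mdga2 also lost their calls in several of the fits that left out 1 mouse.

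Adaptors that bind neurexin tails inside the presynaptic terminal moved both ways, with 2 of 7 higher and 2 lower. Apba1 and Apba2, the Mint adaptors, rose from 31.7 ± 1.47 to 44.9 ± 2.88 and from 81.8 ± 4.24 to 103.7 ± 2.05 FPKM. Their log2 fold changes were 0.50 and 0.34 (limma adjusted p = 0.000769 and 0.0012). Sdcbp, which encodes syntenin, fell from 80.3 ± 3.42 to 67.5 ± 1.97 FPKM (log2 fold change -0.25, limma adjusted p = 0.00368), and Lin7c, outside the rule for named genes and chosen after its values were seen, also fell. Of 4 genes for splicing and shedding of neurexins, Khdrbs2, a neuronal splicing regulator of neurexins, rose by 0.54 (limma adjusted p = 0.0104) and Khdrbs1, its widely expressed relative, fell by 0.18 (limma adjusted p = 0.0185). Without normal mice 2 and 3, adjusted p was 0.0227 for Nxph3, 0.0104 for Igsf21, 0.00616 for Apba1, 0.00721 for Apba2 and 0.00835 for Sdcbp, while C1ql3, Grid1, Mdga2, Magi2, Gphn, Khdrbs2 and Khdrbs1 no longer passed in limma.

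**Figure D3:**
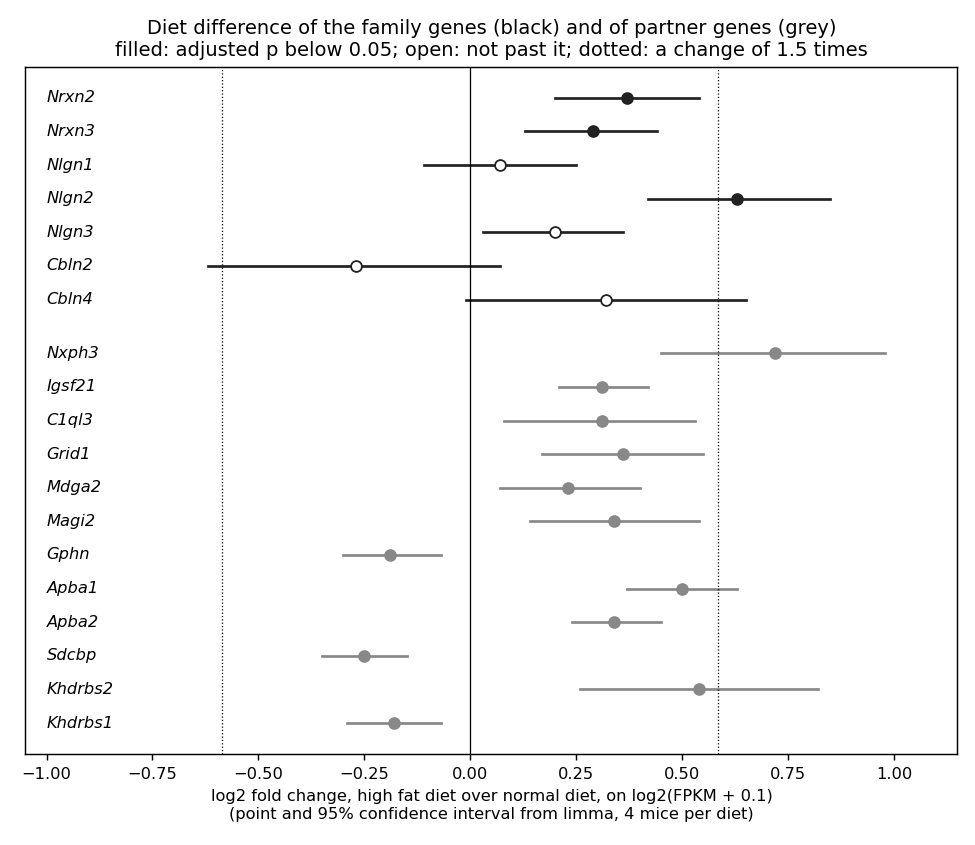
Log2 fold change of high fat over normal diet on the log2(FPKM + 0.1) scale (horizontal axis) with its 95% confidence interval from limma, for the 7 members in black and 12 named partner genes in grey, with 4 mice per diet. Filled points passed an adjusted p of 0.05, and Nlgn2 (0.63) and Nxph3 (0.72) lie beyond the dotted line at 1.5 times.

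The plot of fold changes sets the members beside their partners. The interval of Nlgn2 began at 0.42, above the estimates of Nrxn2 and Nrxn3, and the interval of Nlgn1 ended at 0.25. The widest intervals belonged to the cerebellins. A difference between members was not tested.

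The summed markers of cortical excitatory neurons were higher on the high fat diet, as were the members that rose. In each panel of the plot against these markers, the 4 HFD mice had the highest marker sum and the highest FPKM of Nlgn2, Nrxn2 and Nrxn3. Normal mouse 4 had the largest excitatory sum of its diet, 421.1, and the highest Nlgn2 of its diet, 23.9 FPKM. Normal mice 2 and 3 had sums of 293.1 and 274.5 and Nlgn2 of 17.1 and 18.4 FPKM. Nrxn2 did not follow the sums in this way within the normal diet. It was at 42.8 FPKM in normal mouse 3 and at 38.6 in normal mouse 1, whose sum was 392.6. Among the 8 interneuron markers, 2 rose and 4 fell, and their sums were 560.4 to 585.3 on the normal diet and 482.1 to 554.7 on the high fat diet. That gap rested on Pvalb, at 140.3 and 145.8 FPKM in normal mice 2 and 3 and at 33.4 to 60.5 in the other mice. Without Pvalb, a choice made after the data were seen, the sums of 423.9 to 524.8 and 441.0 to 499.1 overlapped. The other markers that fell were Gad1, Gad2 and Slc32a1, while Vip and Lhx6 rose. Gad1 was at 99.2 to 112.1 FPKM in normal mice and 86.5 to 95.4 in HFD mice. Gad2 was at 22.6 to 29.2 and 19.3 to 21.5 FPKM, so neither overlapped between diets. The 6 oligodendrocyte markers summed to 2019 to 3339 FPKM in normal mice and 1396 to 1937 in the others, and all 6 fell. Of 5 astrocyte markers 2 fell, with sums of 327.4 to 410.2 and 285.4 to 326.8, and of 5 microglial markers none passed, with sums of 65.6 to 79.5 and 72.4 to 74.8. The part of cell type make-up in the rise of Nlgn2, Nrxn2 and Nrxn3 was not tested.

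**Figure D4:**
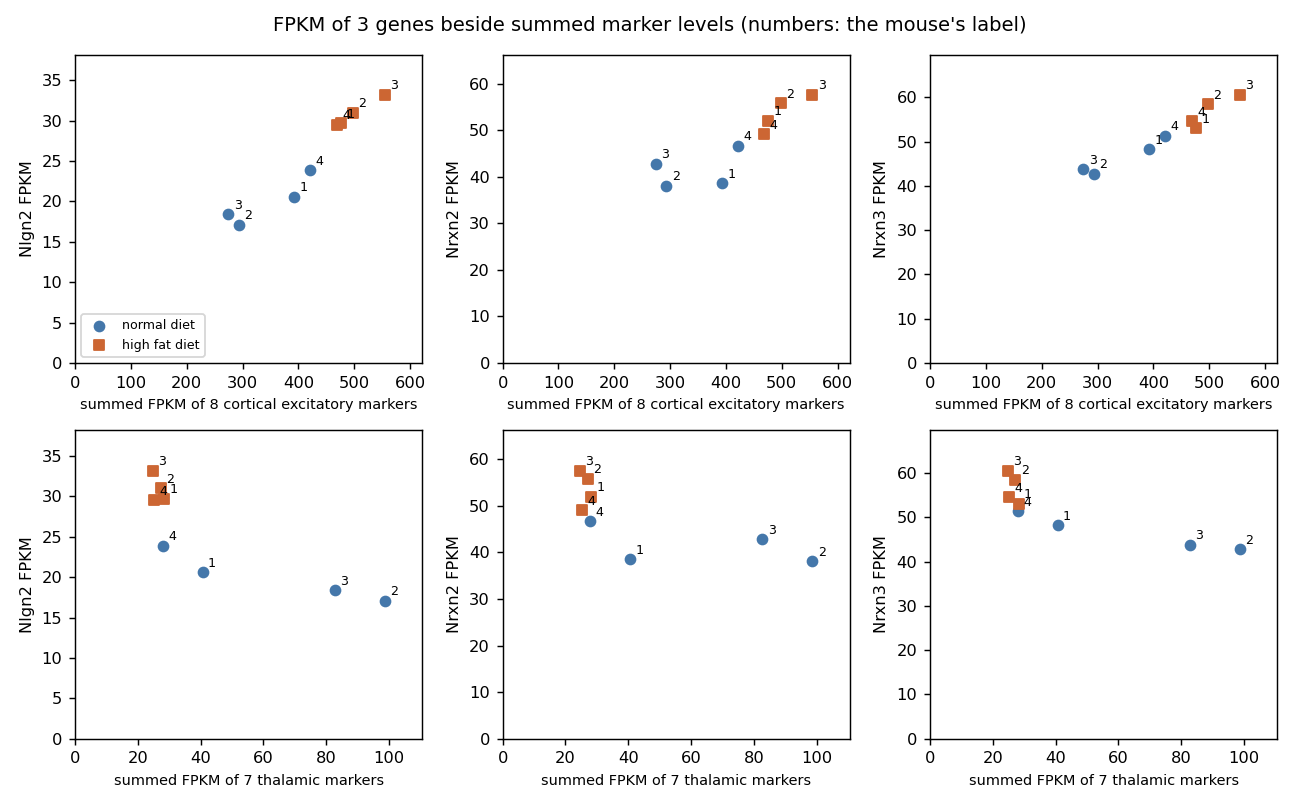
FPKM of Nlgn2, Nrxn2 and Nrxn3 (vertical axes) against the summed FPKM of 8 cortical excitatory markers (upper row) and of 7 thalamic markers (lower row), with circles for normal and squares for HFD mice, numbered by mouse. HFD mice sit at excitatory sums of 468.5 to 555.0 with the highest FPKM of each gene, and normal mice 2 and 3 sit at thalamic sums of 98.7 and 82.7 with the 2 lowest values of Nlgn2 and of Nrxn3.

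With the thalamic marker level as a covariate, Nlgn2 still passed, at a log2 fold change of 0.37 (SE 0.08, limma adjusted p = 0.027), and Nrxn2 and Nrxn3 did not, at 0.27 and 0.13 (limma adjusted p = 0.135 and 0.29). The thalamic level inflated the variance of the diet term 2.11 times, and 1036 of all 13982 genes passed. With the log2 cerebellar level, none of the 7 passed. Nrxn2 was then at 0.40, Nlgn2 at 0.39 and Nrxn3 at 0.11, with adjusted p of 0.184, 0.237 and 0.642 from limma. That covariate runs largely with diet, which inflates the variance of the diet term 3.89 times, and it left 198 genes past the threshold of all 13982. With the cerebellar level on the linear scale, a choice made after the data were seen, the variance of the diet term was inflated 1.72 times. Of all genes, 2465 were called in that fit. Nlgn2 at 0.48 and Nrxn2 at 0.37 then passed (limma adjusted p = 0.0144 and 0.0361), and Nrxn3 at 0.18 did not (limma adjusted p = 0.118).

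**Figure D5:**
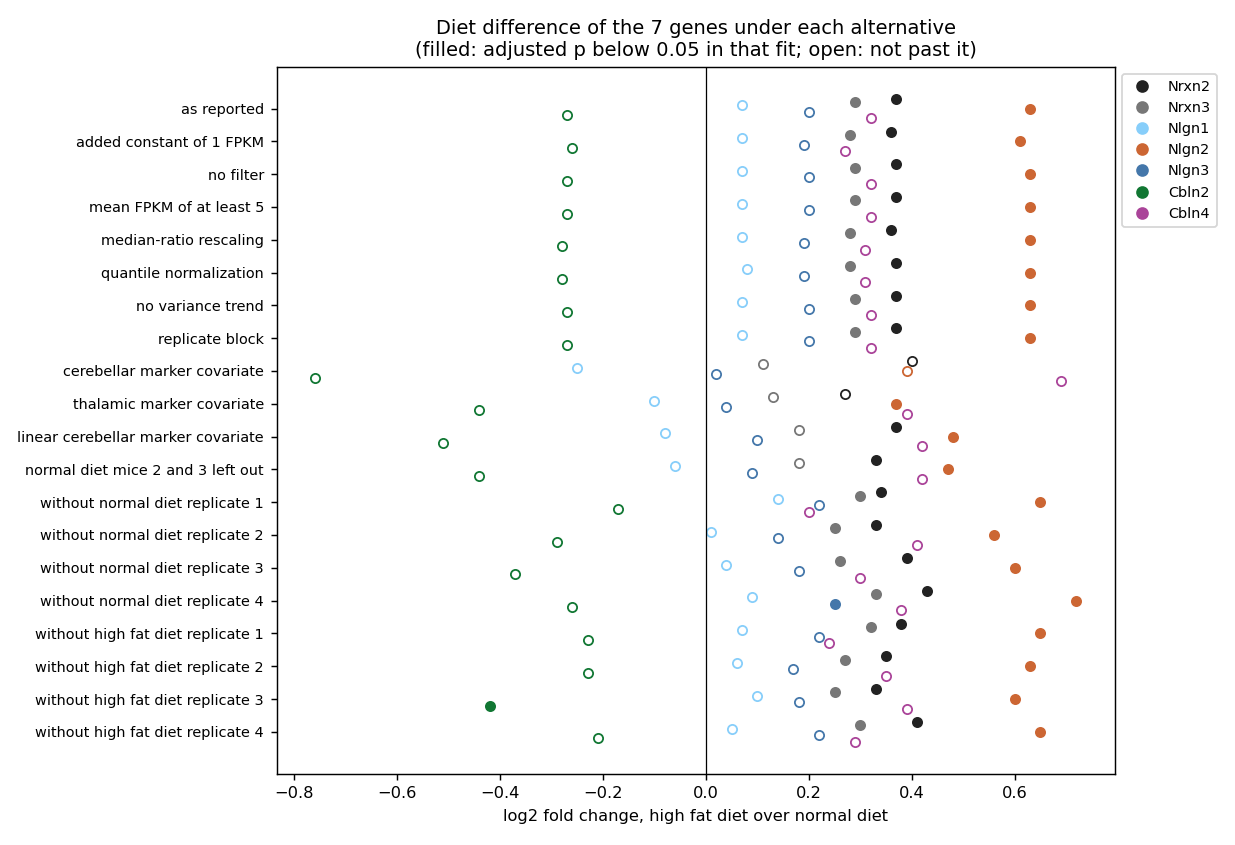
Log2 fold change of each of the 7 genes (horizontal axis, high fat over normal diet) in each fit, 1 line per fit, filled where the adjusted p of that fit was below 0.05. Nlgn2 lies between 0.37 and 0.72 in every fit, while Nlgn1 lies below 0 with marker covariates and without normal mice 2 and 3.

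The plot of all fits shows how the fold change of each member varied between fits. Whether these differences came from tissue of other regions in some normal mice was not tested. Nlgn2, Nrxn2, Nrxn3 and Cbln4 stayed above 0 and Cbln2 below 0 in every fit shown, and Nlgn1 turned from 0.07 to between -0.25 and -0.06 in 4 of them. Nrxn3 was not called in those same 4 fits. Calls over all genes also fell in these fits, from 4626 to between 198 and 2736.

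The genes whose profile over the 8 mice was most like that of a member that rose were found among 9637 genes whose mean FPKM reached 5. Likeness was the root mean square difference of log2(FPKM + 0.1), each gene centred on its own mean. For Nlgn2 the nearest was RP24-297H17.3 (0.0359), followed by Chd5 (0.0376), a chromatin remodeller of neurons, and Vamp2 (0.0405), the synaptobrevin of synaptic vesicles. The median over all those genes was 0.362, and the difference of Nlgn2 from a flat profile was 0.345. Vamp2 was at 98.2 ± 14.6 FPKM in normal mice and 154.7 ± 13.6 on the high fat diet. For Nrxn2 the nearest were Rbm14 (0.0396) and Mapre3 (0.0455), and for Nrxn3 they were Gsk3b (0.0285), a kinase, Dpysl2 (0.0299) and Bcl7a (0.0311). Gsk3b was at 36.9 ± 2.90 and 45.0 ± 3.39 FPKM. These genes were chosen for their likeness on the same mice, so their own diet differences are no further test.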

How the data were processed

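Cortex RNA of 4 mice per diet was sequenced by the authors. Reads were checked with FastQC, trimmed with Trimmomatic and aligned to mm10 with STAR, and Cuffnorm turned them into the deposited FPKM on the basic annotation of GENCODE M17. The sources used here give no tool versions. The deposited FPKM are rounded to 0.1. FPKM leaves the depth of each mouse unknown, so the number of mice limits the precision. Sums of FPKM per mouse were 562431 to 639142.

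From these, log2(FPKM + 0.1) was compared by diet with limma 3.58.1 (R 4.3.3, two-sided, variance trend), adjusted by Benjamini-Hochberg over 13982 genes, those whose mean FPKM reached 1 without a 0 in any mouse. Python 3.11.15, numpy 2.4.6, pandas 2.3.3 and matplotlib 3.10.9 made tables and plots. The procedure was tested on simulated data. Positions come from GENCODE M21, later than the M17 of the authors. Marker covariates, added constants, filters, rescalings, a replicate block and leaving out each mouse were alternatives.

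The members and gene lists were chosen with earlier results of these data known. By rule, all 7 members were named. From each list came the genes past the threshold and 1.5 times, filled up to 3 with the largest log2 fold changes past the threshold, and for each member that passed, its 3 nearest profiles. Not every gene that the rule or the lists select is reported here. Not analysed here were the Salmon quantification, circRNAs and protein measurements.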

Additional observations from a re-analysis of the deposited data

Results flagged for a closer look

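In 38 groups of 4 mice (the 7 members and 12 named partner genes in each diet), the gap of the highest or lowest mouse to its neighbour was set against the range of the group. It exceeded the 95% critical value of Dixon in 3 groups, where chance alone gives about 1 in 20. Cbln2 was at 24.2 FPKM in HFD mouse 3, a gap of 0.884 of the range above 3 mice at 15.6 to 16.6. Sdcbp was at 75.2 FPKM in normal mouse 3, below 3 mice at 81.9 to 82.2 (0.957 of the range), and at 70.5 FPKM in HFD mouse 4, above 3 mice at 66.4 to 66.8 (0.902 of the range). Sdcbp was lower on the high fat diet with or without these mice, whereas the limma adjusted p of Cbln2 passed only without its mouse.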

How the results depend on the processing

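Another added constant, either other filter, median-ratio rescaling, quantile normalization and no variance trend left the counts of called members (3), of members over 1.5 times (1) and of partner genes called higher (10) and lower (4) within 1.5 times of these values. With a replicate block, members called stayed at 3 (Nlgn2 adjusted p = 0.0124, Nrxn2 0.0252, Nrxn3 0.0476 from limma) and partner genes moved to 6 higher and 2 lower. The labels number the mice and state no pairing. Deviations of same-numbered mice correlated at -0.109 to -0.0275, and no normal mouse correlated best with the HFD mouse of its own number. These values cannot show whether same-numbered mice shared a batch. With the log2 cerebellar covariate all 4 counts were 0. With the thalamic covariate they were 1, 0, 3 and 2. With the linear cerebellar covariate, and likewise without normal mice 2 and 3, they were 2, 0, 4 and 2. Calls over all 13982 genes also fell, from 4626 to 198 with the log2 cerebellar, 1036 with the thalamic and 2465 with the linear cerebellar covariate. Without normal mice 2 and 3, 2736 of 13904 genes were called. Nlgn1 reversed to -0.25, -0.10, -0.08 and -0.06 in these 4 fits, and C1ql3 to -0.07 and Magi2 to -0.01 with the log2 cerebellar covariate. With each mouse left out, members called were 3 to 4 and members over 1.5 times 0 to 1 (0 without normal mouse 2). Partner genes ran from 6 higher (without normal mouse 2) to 16 (without normal mouse 1), and from 1 lower (without HFD mouse 1) to 7 (without normal mouse 1). The cause of these shifts was not tested. With 4 mice per diet and values rounded to 0.1, the intervals of Cbln2 and Cbln4 were the widest among the members.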
